A study of Mus musculus with 4 samples.

Results

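The genes described here code for the proteins that coat, enlarge and guard the lipid droplets of the hepatocyte, and for the lipase that these proteins hold in check. They are 10 genes chosen by symbol, the perilipins Plin2, Plin3, Plin4 and Plin5, the Cide genes Cidea, Cideb and Cidec, the lipase inhibitors Hilpda and G0s2, and the lipase gene Pnpla2, out of 45777 genes in the table. All 10 were found, and 9 of them reached an FPKM (fragments scaled to transcript length and library size) of 1 in at least 1 library, as did 11927 genes in all. The 10th, Plin4, stayed under that limit in every library and is described by its reads. Cidea passed it through the KO libraries only, so that a difference of Cidea between genotypes was partly set by the filter.

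The libraries came from primary mouse hepatocytes in 4 groups. They are Dusp6 knockout cells (KO) given fatty acids, wild-type cells (WT) given fatty acids, untreated KO cells and untreated WT cells, with 1 library each. Dusp6 codes for a phosphatase that switches off the kinase ERK, and the labels give the genotype only as a knockout, without saying whether all cells of the mouse or only hepatocytes lacked the gene. All cells had 3 h in culture, after which the fatty acid groups received palmitic acid at 0.5 mM together with oleic acid at 1 mM for 24 h. The labels give neither the age, the sex nor the strain of the mice, nor whether cultures of the same genotype came from separate mice. With 1 library per group the p-values below measure no spread between mice or replicates. They rest on how far the libraries depart from a fit of genotype and treatment, pooled in part over genes. Total reads were between 85423156 and 97364292 per library. Dusp6 itself had an FPKM of 1.11 in KO with fatty acids, 77.1 in WT with fatty acids, 1.42 in untreated KO and 40.7 in untreated WT, so every library matched its genotype label.

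Hepatocytes store surplus fatty acids as triglyceride in lipid droplets, whose surface carries perilipins that limit the access of lipases. Cide proteins sit where droplets touch and pass lipid from the smaller to the larger, and Cideb also helps to load lipid onto very low density lipoprotein. Adipose triglyceride lipase, the product of Pnpla2, takes the first step of triglyceride breakdown, and G0s2 and Hilpda bind and inhibit it. Several of these genes, among them Plin2, Plin5, Hilpda, G0s2, Cidea and Cidec, are known targets of the nuclear receptors PPARα or PPARγ, which fatty acids activate, and Hilpda is also induced by hypoxia.

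Promoter windows from RefSeq (build GRCm38.p6, the same as mm10) were searched for 9 members, 12 windows in all. Each window ran from 250 bases before to 50 after a start site. The promoter of Cidea was left out of the search, so nothing is said here about its motifs. Windows of Plin2, Plin5 and Hilpda are shown because, of the members searched, they were the ones that held a searched motif. The motifs were AGGTCA, the hexamer of PPAR response elements, the full element DR1, in which that hexamer stands as a direct repeat with 1 base between and any base allowed at the fourth position, the hypoxia response core ACGTG and the E-box CACGTG, which contains ACGTG on both strands, each searched on both strands. Capitals mark matches. The first line holds 250 bases before and 10 from the start site of Plin2 (chr4:86670050-86670309, minus strand), the second the 250 bases before the upstream start site of Plin5 (chr17:56117549-56117798, minus strand), and the third 30 bases around the match before the downstream start site of Hilpda (chr6:29272570-29272599, plus strand).
Plin2: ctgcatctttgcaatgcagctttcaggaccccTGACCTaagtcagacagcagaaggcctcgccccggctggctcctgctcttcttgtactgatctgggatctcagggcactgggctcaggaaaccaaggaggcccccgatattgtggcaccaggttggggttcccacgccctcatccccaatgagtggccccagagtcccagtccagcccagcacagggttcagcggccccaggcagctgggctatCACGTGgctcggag
Plin5: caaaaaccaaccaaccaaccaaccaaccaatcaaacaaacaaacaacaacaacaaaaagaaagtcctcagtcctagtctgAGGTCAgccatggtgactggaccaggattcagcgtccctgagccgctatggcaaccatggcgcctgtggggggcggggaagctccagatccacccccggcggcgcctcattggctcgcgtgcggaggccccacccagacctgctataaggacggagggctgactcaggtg
Hilpda: ggatggccagcggACGTGccccagggcgag

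The hexamer AGGTCA lay in 3 of the 12 windows, those of 2 of the 9 members, Plin2 and Plin5, and in 16.3% of 32851 windows of all genes. In Plin2 it began at position -218 from the start site, on the opposite strand. In Plin5 it began at position -170 from the upstream start site, and the window of the downstream start site held another. DR1 was in 0 of the 12 windows and in 0.381% of all windows. ACGTG was in 2 of the 12 windows, 1 of Plin2 and 1 of Hilpda, against 19.6% of all windows. In Plin2 it was part of the E-box, which 7.15% of all windows held. A match of letters is a description and does not show that a factor binds there.

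Levels are given as deposited FPKM in each library. Pairs of libraries were compared as the log2 difference of FPKM + 1, relative to the median gene among the 5903 genes that had 5 FPKM or more throughout. On the deposited scale that median gene itself differed, by 0.38 between KO and WT with fatty acids, 0.00 between untreated KO and WT, 0.16 between KO with and without fatty acids and -0.26 between WT with and without. A difference of 2-fold or more was called higher or lower. With 1 library per group no pair has a replicate check and no p is given for it. Ratios of read counts scaled to library totals (CPM) are given with exact binomial 95% intervals, which cover counting error only, and these ratios are not set relative to the median gene. In whole cultures fewer cells of a type and less RNA per cell cannot be told apart.

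**Figure D1:**
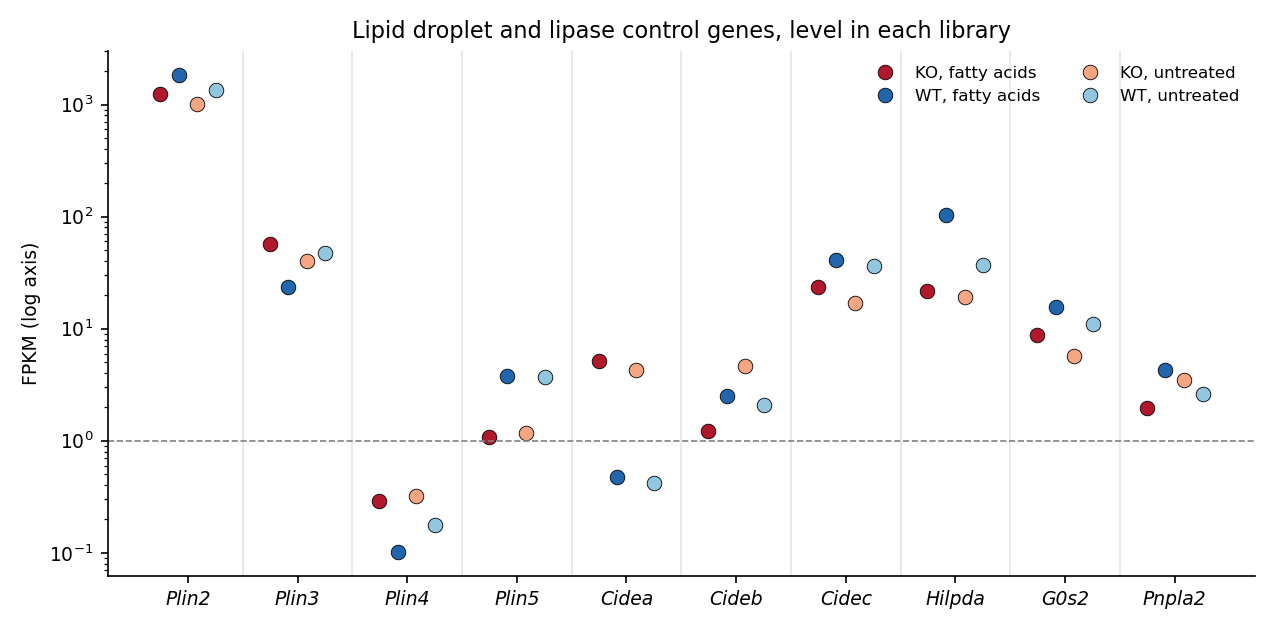
FPKM of each of the 10 genes (log axis) in the 4 libraries, 1 point per library, with a dashed line at an FPKM of 1. Plin2 lies between 1004 and 1850 in every library, Cidea lies above the line in the KO libraries and below it in the WT libraries, and Hilpda stands highest in WT with fatty acids at 102.

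Plin2, the coat protein of most hepatocyte droplets (Entrez 11520, chromosome 4, 86626910 to 86670217, minus strand), was by far the most abundant member. It had an FPKM of 1237 in KO with fatty acids, 1850 in WT with fatty acids, 1004 in untreated KO and 1358 in untreated WT, and ranked 56th, 41st, 58th and 43rd among all genes of these libraries. Both KO libraries lay below both WT libraries, and within each genotype the library with fatty acids was the higher. The CPM ratio of KO to WT was 0.658 (95% interval 0.654 to 0.661) with fatty acids and 0.758 (0.753 to 0.762) without. Relative to the median gene the differences were -0.96 and -0.44, both short of the 2-fold rule. Fatty acids went with a CPM ratio to untreated of 1.21 (1.21 to 1.22) in KO and 1.40 (1.39 to 1.40) in WT.

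Plin3, a perilipin that moves between cytosol and new droplets (Entrez 66905, chromosome 17, 56278962 to 56290511, minus strand), had an FPKM of 57.3 in KO with fatty acids, 23.4 in WT with fatty acids, 39.97 in untreated KO and 47.0 in untreated WT. WT with fatty acids was the low library, and the order of the genotypes was opposite with and without fatty acids. With fatty acids the KO to WT ratio in CPM was 2.42 (2.34 to 2.50), against 0.874 (0.849 to 0.900) in untreated cells. The fatty acid ratio to untreated was 1.41 (1.38 to 1.45) in KO and 0.511 (0.494 to 0.528) in WT. On the scale of the median gene the KO minus WT difference with fatty acids was 0.88, short of 2-fold, while on the deposited scale it was 1.26.

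Plin5, a perilipin of oxidative cells that ties droplets to mitochondria (Entrez 66968, chromosome 17, 56111597 to 56117606, minus strand), had an FPKM of 1.08 in KO with fatty acids, 3.79 in WT with fatty acids, 1.17 in untreated KO and 3.68 in untreated WT. The KO libraries stood apart from the WT libraries, and the treatments hardly differed within either genotype. The KO to WT ratio in CPM was 0.278 (0.239 to 0.321) with fatty acids, from 236 reads in KO and 778 in WT, and 0.327 (0.280 to 0.38) untreated, from 229 and 716 reads. Both differences were past 2-fold, at -1.58 and -1.11 relative to the median gene. The ratio of fatty acids to untreated was 0.904 (0.751 to 1.09) in KO and 1.06 (0.961 to 1.18) in WT, and both intervals include 1.

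Plin4, a perilipin best known from adipocytes and muscle (Entrez 57435, chromosome 17, 56100587 to 56109948, minus strand), was scarce, with 201 reads in KO with fatty acids, 62 in WT with fatty acids, 196 in untreated KO and 113 in untreated WT. The highest FPKM was 0.319. By CPM the KO to WT ratio was 2.97 (2.22 to 4.01) with fatty acids and 1.77 (1.40 to 2.25) untreated, and Plin4 was the only perilipin with a higher CPM in KO than in WT under both treatments. The ratio of fatty acids to untreated was 0.900 (0.735 to 1.10) in KO and 0.538 (0.388 to 0.739) in WT.

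Plin2 made up 95.5% of the summed perilipin FPKM in KO with fatty acids, 98.5% in WT with fatty acids, 96.0% in untreated KO and 96.4% in untreated WT. Plin3 held 4.43%, 1.24%, 3.82% and 3.34% in the same order of libraries, and Plin5 at most 0.261%. The ratio of Plin3 to Plin2 was 0.0464 in KO with fatty acids and 0.0126 in WT with fatty acids, a log2 difference of 1.88, and it was 0.0398 and 0.0346 in untreated KO and WT. Such ratios within a library do not depend on how libraries are scaled.

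Cidea, a droplet fusion protein of brown fat that also appears in fatty liver (Entrez 12683, chromosome 18, 67343564 to 67367794, plus strand), had an FPKM of 5.15 in KO with fatty acids, 0.478 in WT with fatty acids, 4.26 in untreated KO and 0.416 in untreated WT. These rest on 669 reads in KO with fatty acids, 58 in WT with fatty acids, 493 in untreated KO and 48 in untreated WT, and the genotypes did not overlap. The KO to WT ratio in CPM was 10.6 (8.06 to 14.0) with fatty acids and 10.5 (7.79 to 14.4) untreated, and nearly equal under both treatments. The log2 differences of 1.68 and 1.89 relative to the median gene understate it, because the added FPKM of 1 exceeds the WT level. With fatty acids the ratio to untreated was 1.19 (1.06 to 1.34) in KO and 1.18 (0.794 to 1.77) in WT.

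Cideb, the constitutive Cide protein of liver (Entrez 12684, chromosome 14, 55754052 to 55758424, minus strand), had an FPKM of 1.22 in KO with fatty acids, 2.51 in WT with fatty acids, 4.66 in untreated KO and 2.07 in untreated WT. The untreated KO library was the highest and the KO library with fatty acids the lowest, so the WT values lay between them. The ratio of fatty acids to untreated in CPM was 0.258 (0.215 to 0.308) in KO, from 160 and 545 reads, and 1.25 (1.06 to 1.49) in WT. Relative to the median gene the fatty acid difference was -1.51 in KO, past 2-fold, and 0.46 in WT. Cideb overlaps the gene Nop9 by 1583 bases and the gene Ltb4r2 by 503 bases, both on the other strand. The strand setting of the counting is not given, so reads of those stretches cannot be told apart. Nop9 had 5977 reads in KO with fatty acids, 4458 in WT with fatty acids, 5719 in untreated KO and 4051 in untreated WT. Ltb4r2 had 8, 24, 16 and 19 in the same order of libraries. The part of such reads in the Cideb values was not tested.

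Cidec, the Cide protein of large droplets (Entrez 14311, chromosome 6, 113424634 to 113435760, minus strand), was the most abundant of the 3. It had an FPKM of 23.7 in KO with fatty acids, 41.2 in WT with fatty acids, 17.1 in untreated KO and 36.3 in untreated WT, so both KO libraries lay below both WT libraries. The KO to WT ratio in CPM was 0.567 (0.547 to 0.588) with fatty acids and 0.484 (0.463 to 0.505) untreated, and the differences relative to the median gene were -1.15 and -1.05. Fatty acids went with a ratio of 1.37 (1.31 to 1.43) in KO and 1.17 (1.13 to 1.20) in WT.

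The makeup of the Cide family therefore differed by genotype. Cidea held 17.1% of the summed Cide FPKM in KO with fatty acids, 1.08% in WT with fatty acids, 16.4% in untreated KO and 1.07% in untreated WT, while Cidec held 78.8%, 93.2%, 65.7% and 93.6%. The share of Cideb was 17.9% in untreated KO and 4.05% to 5.70% in the other libraries. The ratio of Cidea to Cidec was 0.217 in KO with fatty acids and 0.0116 in WT with fatty acids, and 0.249 and 0.0115 in untreated KO and WT.

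**Figure D2:**
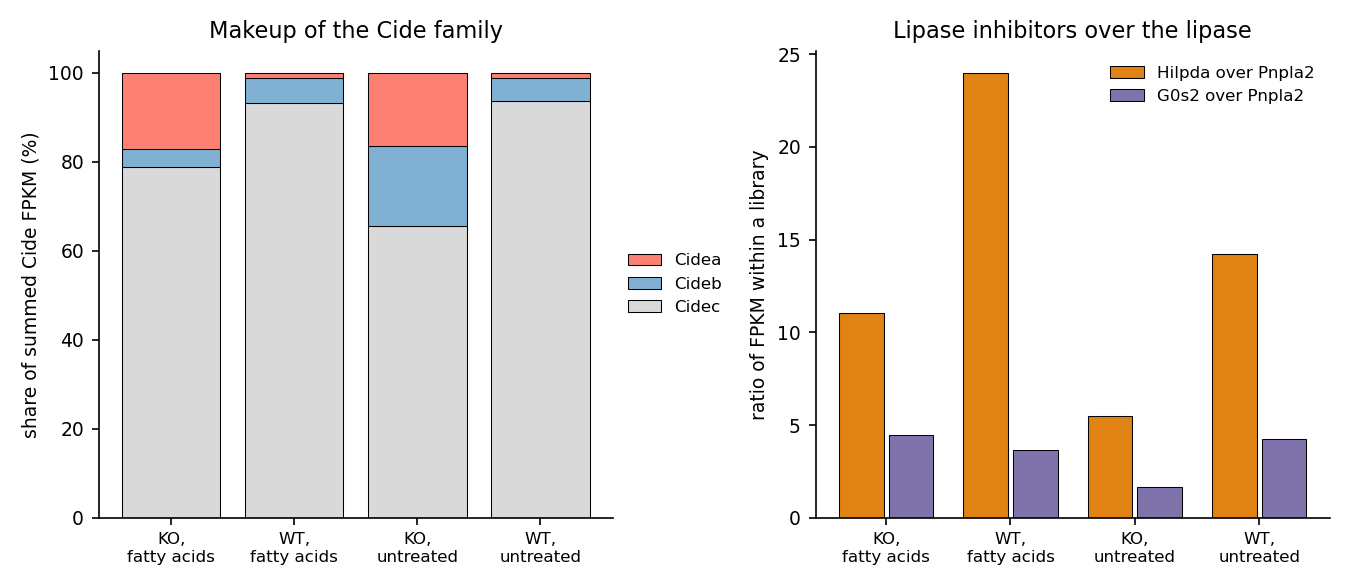
Left, share of each Cide gene in the summed Cide FPKM (%) of each library as stacked bars. Right, FPKM of Hilpda and of G0s2 divided by that of Pnpla2 in the same library, 1 bar per ratio and library. Cidea holds 17.1% and 16.4% in the KO libraries against 1.08% and 1.07% in the WT libraries, and Hilpda over Pnpla2 is highest in WT with fatty acids at 24.0.

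Pnpla2, which codes for adipose triglyceride lipase (Entrez 66853, chromosome 7, 141455188 to 141460743, plus strand), had an FPKM of 1.98 in KO with fatty acids, 4.27 in WT with fatty acids, 3.48 in untreated KO and 2.63 in untreated WT. KO was the lower genotype with fatty acids and the higher one without. The KO to WT ratio in CPM was 0.455 (0.412 to 0.504) with fatty acids and 1.36 (1.23 to 1.51) untreated. The fatty acid ratio to untreated was 0.556 (0.501 to 0.618) in KO and 1.67 (1.52 to 1.83) in WT. Relative to the median gene Pnpla2 passed 2-fold only for KO minus WT with fatty acids, at -1.20, and on the deposited scale that value was -0.82.

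Hilpda, the lipase inhibitor induced by lipid and by hypoxia (Entrez 69573, chromosome 6, 29272488 to 29275449, plus strand), had an FPKM of 21.8 in KO with fatty acids, 102 in WT with fatty acids, 19.1 in untreated KO and 37.4 in untreated WT. WT with fatty acids stood far above the other libraries, and the KO libraries were close together. The ratio of fatty acids to untreated in CPM was 1.14 (1.07 to 1.21) in KO and 2.82 (2.72 to 2.93) in WT. The KO to WT ratio was 0.210 (0.200 to 0.219) with fatty acids, from 2392 reads in KO and 10444 in WT, and 0.518 (0.489 to 0.548) untreated. Relative to the median gene the KO minus WT difference was -2.56 with fatty acids and -0.94 untreated, and the fatty acid difference was 0.02 in KO and 1.69 in WT.

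G0s2, the other inhibitor of the lipase (Entrez 14373, chromosome 1, 193272160 to 193273188, minus strand), had an FPKM of 8.79 in KO with fatty acids, 15.7 in WT with fatty acids, 5.73 in untreated KO and 11.1 in untreated WT. Both KO libraries lay below both WT libraries, and within each genotype fatty acids went with the higher level. The KO to WT ratio in CPM was 0.551 (0.505 to 0.601) with fatty acids and 0.532 (0.475 to 0.595) untreated. The fatty acid ratio was 1.51 (1.35 to 1.70) in KO and 1.46 (1.34 to 1.59) in WT, so that these intervals overlapped, unlike those of Hilpda. The intervals of both genes cover counting error of single libraries only, so a difference between the responses was not tested.

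Set against the lipase in the same library, Hilpda stood at 11.0 times the FPKM of Pnpla2 in KO with fatty acids, 24.0 in WT with fatty acids, 5.47 in untreated KO and 14.2 in untreated WT. The log2 difference of this ratio between KO and WT was -1.12 with fatty acids and -1.38 untreated. G0s2 over Pnpla2 was 4.44 in KO with fatty acids, 3.68 in WT with fatty acids, 1.64 in untreated KO and 4.22 in untreated WT, with untreated KO the low library. Abhd5, the coactivator of the lipase, was looked at after its values were seen, and had an FPKM of 21.7 in KO with fatty acids, 16.7 in WT with fatty acids, 18.6 in untreated KO and 18.9 in untreated WT.

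The first comparison asks how KO and WT cells differed while loaded with lipid. With fatty acids, 6 of the 9 members compared were lower in KO and 1 was higher, relative to the median gene, where 8.43% of the 11927 genes were lower and 3.12% higher. The lower members were Hilpda, Plin5, Pnpla2, G0s2, Cidec and Cideb, between -2.56 and -1.04, and the higher was Cidea. Since Cidea passed the filter through the KO libraries only, its place in this count was partly set by the filter. The count depends on the scale. On the deposited scale 2 members were lower, Hilpda and Plin5, and 2 were higher, Cidea and Plin3, beside 4.18% of genes lower and 9.83% higher, and the other 4 that passed relative to the median gene lay between -0.82 and -0.67.

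In untreated cells 2 of the 9 were lower in KO, Plin5 and Cidec, and 1 was higher, Cidea, where 2.1% of all genes were lower and 3.55% higher. The median gene hardly moved in this pair, and the deposited scale gave the same counts of members beside 2.09% and 3.57% of genes. Hilpda at -0.94 and G0s2 at -0.85 were short of the rule, and Cideb was at 0.88. Both pairs use different libraries. Cidea, Plin5 and Cidec were past 2-fold in the same direction in both, relative to the median gene. The share of all genes that did so was not counted. On the deposited scale Cidec with fatty acids was at -0.77, short of the rule. Cidea was compared only because its KO libraries passed the filter.

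**Figure D3:**
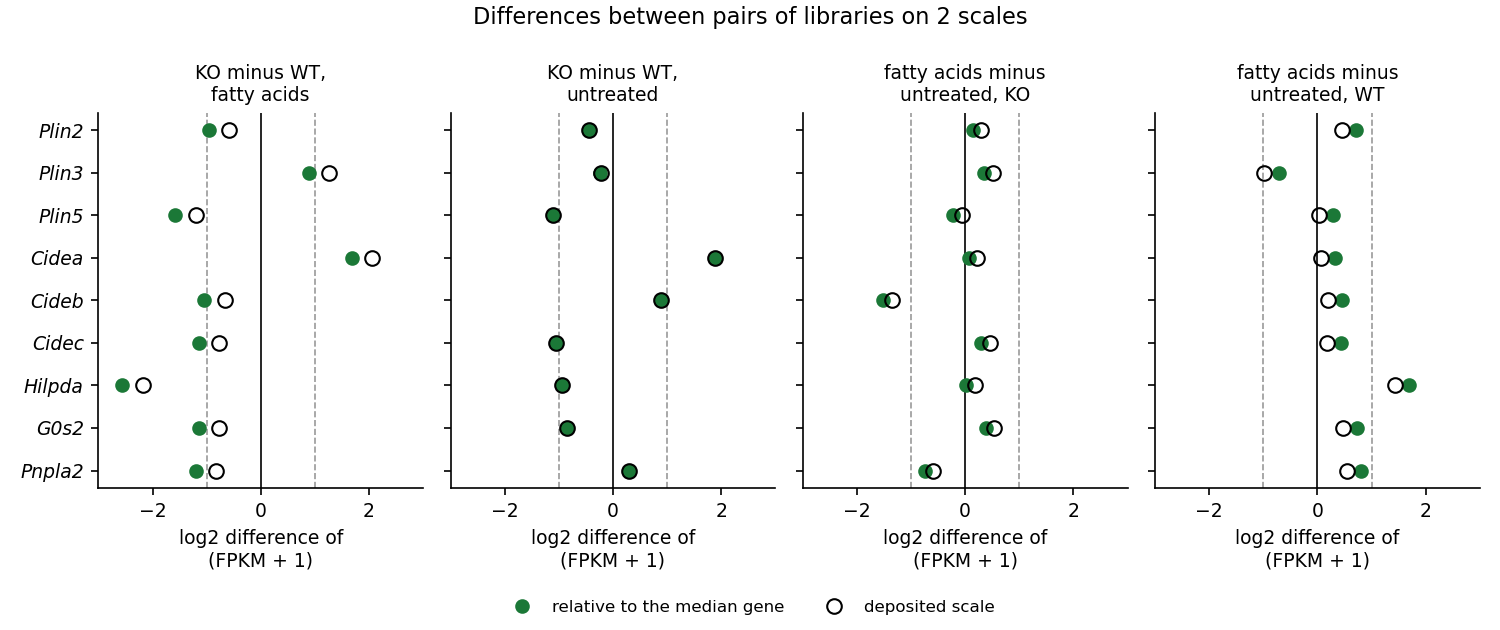
Log2 difference of FPKM + 1 for the 9 genes compared (rows) in each of 4 pairs of libraries (panels), relative to the median gene (filled) and on the deposited scale (open), with dashed lines at 2-fold. The scales are apart by 0.38 for KO minus WT with fatty acids and hardly at all in untreated cells, and Hilpda reaches -2.56 in the first panel and 1.69 in the last.

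To ask for a genotype difference over both treatments, all 4 libraries were fitted in edgeR on the read counts, with a term for genotype and a term for treatment, a fit with 1 residual degree of freedom that takes any difference between the fatty acid responses for noise. Of the 10 members, 4 passed an adjusted p of 0.05 over 17611 genes, 1 higher and 3 lower in KO, where 1.32% of genes were called higher and 1.56% lower. Cidea was higher by 3.18 ± 0.46 on the log2 scale (fit ± SE, edgeR adjusted p = 0.00249). Plin5 was at -1.95 ± 0.38 (edgeR adjusted p = 0.0149), Hilpda at -1.82 ± 0.36 (0.0163) and Cidec at -1.15 ± 0.28 (0.0486). G0s2 at -1.10 ± 0.34 did not pass (edgeR adjusted p = 0.118), nor did Plin2 at -0.72 ± 0.29 (0.257) or Plin4 at 0.98 ± 0.55 (0.454). Pnpla2, Plin3 and Cideb, whose genotype differences had opposite signs in the 2 treatments, had fitted values of -0.56, 0.32 and -0.13 and the adjusted p-values 0.625, 0.763 and 0.964. Without the filter on low counts Cidea alone kept its call, with Plin5 at an adjusted p of 0.0794, Hilpda at 0.102 and Cidec at 0.133 in edgeR.

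**Figure D4:**
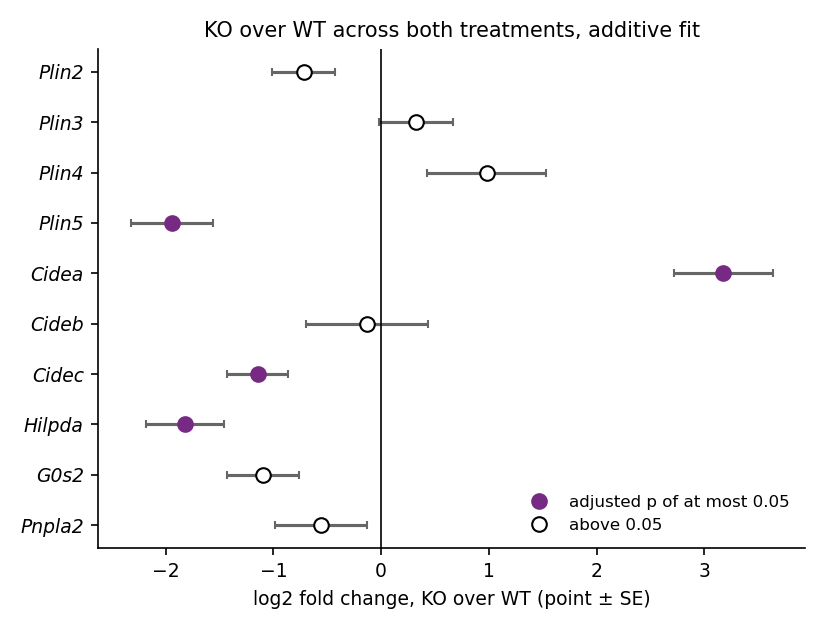
Log2 fold change of KO over WT across both treatments (x axis, point ± SE) for the 10 genes from the additive edgeR fit of 4 libraries. Filled points passed an adjusted p of 0.05 over 17611 genes, and Cidea stands at 3.18 on the right while Plin5, Hilpda and Cidec stand between -1.95 and -1.15 on the left.

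The next comparisons ask what the fatty acids went with in each genotype. In KO, 0 of 9 members were higher with fatty acids and 1 was lower, Cideb, where 0.101% of genes were higher and 5.05% lower relative to the median gene. The deposited scale gave the same counts of members beside 0.168% and 3.3% of genes. In WT, 1 member was higher, Hilpda, and 0 were lower, where 3.57% of genes were higher and 0.654% lower, and again the deposited scale gave the same counts of members, beside 1.78% and 2.24% of genes. Plin2, G0s2 and Pnpla2 in WT were at 0.71, 0.73 and 0.80 and did not reach 2-fold, and Plin3 was at -0.72. In the additive edgeR fit no member passed for fatty acids, where 0% of 17611 genes were called higher and 0.0114% lower. Before adjustment 1 of the 10 members had a p under 0.05 in edgeR, as did 901 of the 17611 genes. That member was Hilpda, at 0.97 ± 0.36 (edgeR adjusted p = 0.830). DESeq2 and limma also called 0 members after adjustment.

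The difference between the fatty acid responses, KO minus WT, was past 2-fold for 4 members, relative to the median gene. It was -1.97 for Cideb, -1.67 for Hilpda, -1.55 for Pnpla2 and 1.06 for Plin3, so 3 were lower and 1 higher, where 10.7% of genes were lower and 1.14% higher. Deposited FPKM gave the same 4 as -1.55, -1.25, -1.13 and 1.49. On that scale the median over all genes was 0.22, and the share of all genes past 2-fold was not counted. Cideb, Pnpla2 and Plin3 had fatty acid differences of opposite sign in KO and WT, while Hilpda was at 1.69 in WT and 0.02 in KO. Plin2, Plin5, Cidea, Cidec and G0s2 lay between -0.57 and -0.15, where the median over all genes was -0.20.

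**Figure D5:**
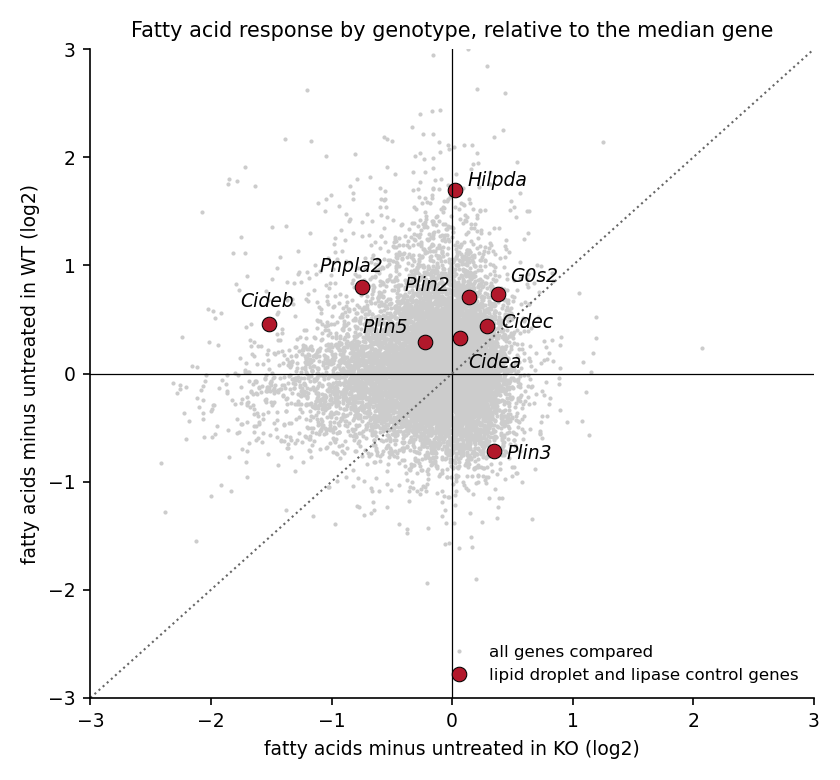
Fatty acid difference in KO (x axis) against that in WT (y axis), log2 relative to the median gene, for the 11927 genes compared (grey) and the 9 members (red), with the dotted line where both are equal. 7 genes fall outside the axes, which end at 3. Hilpda lies near 0 on the x axis and at 1.69 on the y axis, Cideb and Pnpla2 lie in the upper left and Plin3 in the lower right.

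Longer transcripts were lower with fatty acids in KO, with a median of -0.21 for the longest tertile of reference genes and 0.14 for the shortest. Cideb and Hilpda lie in the shortest tertile and Pnpla2 and Plin3 in the middle. Adjusted for transcript length and GC content, the differences of the responses were -2.02 for Cideb, -1.66 for Hilpda, -1.71 for Pnpla2 and 1.10 for Plin3.

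The counts of other gene lists for KO minus WT with fatty acids are relative to the median gene, to be read beside the 3.12% of all genes that were higher and the 8.43% that were lower, and the counts on the deposited scale beside 9.83% and 4.18%. Among 18 other lipases and lipase regulators compared, 1 was higher and 2 were lower in KO with fatty acids, and on the deposited scale 4 were higher and 2 lower. Angptl4, a secreted inhibitor of lipoprotein lipase and a PPAR target, had an FPKM of 25.3 in KO with fatty acids, 120 in WT with fatty acids, 22.9 in untreated KO and 55.7 in untreated WT, an order and size much like those of Hilpda. Angptl8, which acts on the same lipase, ran the other way, at 17.1 in KO and 2.99 in WT with fatty acids and 10.3 and 3.45 in untreated KO and WT. The carboxylesterases Ces1g and Ces1d, which hydrolyse triglyceride in liver, were higher in untreated KO by 1.72 and 1.34 relative to the median gene.

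Of 24 other droplet coat and assembly genes, 2 were higher and 1 lower in KO with fatty acids, and on the deposited scale 4 were higher and 1 lower. Their median changed sign with the scale, at -0.26 relative to the median gene and 0.11 on the deposited scale, where that of all genes compared was -0.06 and 0.31. Hsd17b11, a droplet enzyme, was also lowest in KO with fatty acids, with an FPKM of 2.96 in KO with fatty acids, 7.97 in WT with fatty acids, 7.72 in untreated KO and 6.44 in untreated WT. The higher genes were Nsdhl and Sqle, sterol synthesis enzymes found on droplets, at 1.59 and 1.34. Of 14 triglyceride synthesis enzymes, 1 was higher in KO with fatty acids, the acyltransferase Agpat2 at 1.36, and 2 were lower, the phosphatidate phosphatase Lpin2 at -1.06 and the last enzyme of the pathway, Dgat2, at -1.05. On the deposited scale 3 of these enzymes were higher and 0 lower, with Lpin2 at -0.68 and Dgat2 at -0.67.

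Of 29 other classical PPARα targets, 0 were higher and 16 lower in KO with fatty acids, with a median of -1.12, and on the deposited scale 1 was higher and 12 lower, with a median of -0.74. In untreated KO 0 were higher and 13 lower, beside 3.55% and 2.1% of all genes, with a median of -0.46 on both scales. The fatty acid difference in WT had a median of 0.47, or 0.21 on the deposited scale, where that of all genes was 0.03 and -0.23. On either scale 3 of the 29 were higher, beside 3.57% and 1.78% of all genes. The median of this difference in KO was -0.13, or 0.03 on the deposited scale, near that of all genes at -0.10 and 0.06. There 1 of the 29 was lower on either scale, beside 5.05% and 3.3% of all genes. Pdk4, the kinase that blocks pyruvate oxidation, was likewise highest in WT with fatty acids, with an FPKM of 12.0 in KO with fatty acids, 103 in WT with fatty acids, 25.8 in untreated KO and 19.2 in untreated WT. The median of 9 PPARγ targets of fatty liver, a list that includes Cidea and Cidec, was -0.33 in KO minus WT with fatty acids, or 0.05 on the deposited scale, and 0.22 untreated on both scales. Among 21 hypoxia response genes 1 was higher and 1 lower in KO with fatty acids, Ddit4 at 1.55 and Pfkfb3 at -1.05. On the deposited scale 2 were higher, Ddit4 and P4ha2, and 0 lower, with Pfkfb3 at -0.67.

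Markers of other cell types were also detected, and some differed between the libraries. All 11 hepatocyte markers reached an FPKM of 1 in every library, and their sum was 13494 in KO with fatty acids, 12604 in WT with fatty acids, 11881 in untreated KO and 9535 in untreated WT. The summed FPKM of 16 macrophage markers was 340 in KO with fatty acids, 341 in WT with fatty acids, 282 in untreated KO and 169 in untreated WT, so it differed with fatty acids most in WT, as Hilpda did. Of 15 of them compared, 11 were higher with fatty acids in WT, beside 3.57% of all genes, and 0 in KO. On the deposited scale 7 were higher and 1 lower in WT, beside 1.78% and 2.24% of all genes. Among the higher was Marco at 25.3 with fatty acids and 4.83 untreated in WT, and at 3.64 and 3.45 in KO. Gpnmb, the 1 marker below 0 in WT, was at 1.20 with fatty acids and 3.93 untreated, and at 22.8 and 15.9 in KO. With fatty acids 2 of the 15 were higher in KO and 4 lower, beside 3.12% and 8.43% of all genes. On the deposited scale these were 3 and 2, beside 9.83% and 4.18%. In the difference of the fatty acid responses 1 was higher and 11 lower, beside 1.14% and 10.7% of all genes. The deposited scale gave 1 and 4 there, with no share of all genes counted. In untreated cells 7 of these 15 markers were higher in KO and 0 lower on both scales, while Hilpda was at -0.94. Of all genes 3.55% were higher and 2.1% lower there, or 3.57% and 2.09% on the deposited scale. The summed FPKM of 10 endothelial markers was 15.4 in KO with fatty acids, 15.7 in WT with fatty acids, 22.6 in untreated KO and 7.47 in untreated WT. Of 5 of them compared, 4 were higher in untreated KO on both scales, opposite in sign to Hilpda, beside 3.55% of all genes, or 3.57% on the deposited scale. Relative to the median gene 4 were lower in the difference of the fatty acid responses, as Hilpda was, beside 10.7% of all genes. The 10 adipocyte markers other than the members summed to 13.8 in KO with fatty acids, 29.8 in WT with fatty acids, 11.0 in untreated KO and 11.4 in untreated WT, so they too were highest in WT with fatty acids. Fabp4 was at 20.4 with fatty acids and 7.58 untreated in WT, and Pck1, which hepatocytes also express, at 8.89 and 3.58. The part of these cell types in the Hilpda result was not tested. Of the same 10 adipocyte markers, Lep, Ucp1 and Slc7a10 had 0 reads in every library, and Plin1 and Adipoq reached at most 0.0634 and 0.0542. Of 14 stellate cell markers 13 stayed under an FPKM of 1 throughout.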

How the data were processed

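RNA was measured by sequencing of total RNA from primary mouse hepatocytes, with stranded libraries per the labels' protocols, 1 library in each of 4 groups. The authors deposited 1 table with read counts, FPKM and TPM of each gene per library, per the file headers. The deposited counts are not normalized, the authors scaled the FPKM to transcript length and library size, and the deposited TPM are the FPKM rescaled to an equal sum. Per the submitters' processing notes the build was mm10 and the tools included HISAT2 2.1.0, StringTie 2.1.3b, Bowtie2, Trimmomatic 0.38 and FastQC 0.11.7, with no roles named. The sources used here do not give the annotation or how, and on which strand, reads were counted.

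The main values are log2(FPKM + 1) differences between libraries, relative to the median of 5903 genes that had 5 FPKM or more throughout, over 11927 genes that reached 1 FPKM in any library, which leaves out Plin4. A 2-fold rule of size stood in for a test. The scale understates the change of genes with a low FPKM. The additive fit used edgeR 4.0.16 (quasi-likelihood, TMM, filterByExpr, Benjamini-Hochberg over 17611 genes). Total counts were between 85423156 and 97364292, and intervals of count ratios cover counting error only, since reads are not independent molecules. Rn7s RNAs took 2.60% of reads in KO with fatty acids, 8.20% in WT with fatty acids, 3.94% in untreated KO and 6.20% in untreated WT.

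The alternatives were other pseudocounts, filters, scalings and fold rules, and DESeq2 1.42.0 and limma 3.58.1 in place of edgeR. Adjusting for transcript length and GC content (GENCODE M21, matched for 98.1% of reference genes) and centring on hepatocyte markers were chosen after seeing the data. The members and the 14 gene lists were chosen with earlier results of these data known. The rule for named genes took all 10 members, and up to 4 genes of each other list with the largest difference, apart from a few not reported here. The 2-fold rule for KO minus WT and the additive genotype fit were tested on simulated data in which genes differed by genotype only. The simulated data held no fatty acid effect, so the fatty acid comparisons were not tested by them. Software was R 4.3.3 and Python 3.11.15 (pandas 2.3.3, numpy 2.4.6, statsmodels 0.14.6, scipy 1.17.1 and matplotlib 3.10.9). Gene coordinates and promoters are those of RefSeq on GRCm38.p6.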

Additional observations from a re-analysis of the deposited data

Results flagged for a closer look

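Each of the following had differences of opposite sign in KO and WT, or with and without fatty acids, and with 1 library per group no such difference was tested. All values are log2 differences relative to the median gene.

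Plin3 had a fatty acid difference of 0.35 in KO and -0.72 in WT, and a KO minus WT difference of 0.88 with fatty acids and -0.23 untreated. Pnpla2, the lipase gene, had a fatty acid difference of -0.75 in KO and 0.80 in WT, and a KO minus WT difference of -1.20 with fatty acids and 0.30 untreated. Cideb had a fatty acid difference of -1.51 in KO and 0.46 in WT, and a KO minus WT difference of -1.04 with fatty acids and 0.88 untreated. Plin5 had a fatty acid difference of -0.23 in KO and 0.29 in WT, which are small, and other settings gave between -0.34 and 0.04 in KO and between -0.25 and 0.42 in WT.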

How the results depend on the processing

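No paired analysis was possible because each group has 1 library, and for the same reason no replicate could be left out. Apart from the deposited scale and the additive fits, shares of all genes are not given for the alternatives. The counts of members below therefore show only how calls move with the setting, not whether they exceed those of other genes. With a pseudocount of 5 FPKM, 0 members were higher and 1 lower in KO with fatty acids (1 and 6 in the report), 0 higher and 0 lower in untreated KO (1 and 2) and 0 lower with fatty acids in KO (1). On the deposited scale 2 were higher and 2 lower in KO with fatty acids, and as TPM 2 and 2, with 2 higher and 1 lower in untreated KO and 1 lower with fatty acids in WT (0). Under a filter at an FPKM of 5, which leaves fewer members, 3 were lower in KO with fatty acids, 1 in untreated KO, 0 with fatty acids in KO and 1 in the difference of responses (3). Under a 1.5-fold rule 2 were higher in KO with fatty acids, 2 higher and 4 lower in untreated KO, 2 lower with fatty acids in KO, and 4 higher and 1 lower with fatty acids in WT. A pseudocount of 0.1 FPKM gave 2 higher in untreated KO. Centring on hepatocyte markers gave 5 lower in untreated KO and 1 lower with fatty acids in WT. Without a filter on low counts the additive edgeR fit had 0 members lower in KO (3). In the additive fits the alternatives gave adjusted p-values of 0.00132 to 0.0794 for Plin5, 0.00012 to 0.102 for Hilpda and 0.00472 to 0.133 for Cidec. The same fit called 506 genes for genotype in edgeR, 136 without the filter and 872 in DESeq2, and for fatty acids 2, 0 and 32. The causes were not tested. Other filters and fold rules cannot move a gene's own value. Of 481 values of single members under the remaining alternatives, 249 stayed within their counting interval or kept their call, 228 moved by more, 3 lost and 1 gained a call, and 0 reversed a called direction. Hilpda stayed past 2-fold in KO minus WT with fatty acids (-2.63 to -1.82) and with fatty acids in WT (1.15 to 1.73), as did the differences of responses of Hilpda, Plin3 and Cideb, under all 9 alternatives that could move each value. For Plin3 the lowest of these was 1.00, at the limit of the rule. The difference of responses of Pnpla2 ran from -1.92 to -0.91. It stayed past 2-fold under 10 of 11 alternatives, counting those that cannot move it.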
